A study of Mus musculus with 9 samples.

Results

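Between 0.5 and 1.5 days after mouse embryonic stem (ES) cells were moved to differentiation medium, most genes of naive pluripotency fell in both media used, while Fgf5, Pou3f1, Pim2 and a group of epithelial, lysosomal and sterol synthesis genes rose. This step is described here from 4 of the 9 arrays of the study. They are the arrays of 0.5 days (D0.5) and 1.5 days (D1.5), each with doxycycline at 1 µg/ml (Dox+) and without it (Dox-). The ES cells had been kept with leukemia inhibitory factor (LIF) and doxycycline, and were differentiated with fetal bovine serum and without LIF. In these cells doxycycline governs a version of protein kinase A (PKA) that is always active, where the normal enzyme waits for cyclic AMP. The labels do not say whether doxycycline's presence or its absence switches it on, so the media are called Dox+ and Dox-. The undifferentiated culture also contained doxycycline. The ES cell line is not given in the labels used here.

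With 1 array per day and medium, the 2 media stand in for repeats of the step, and a p-value here reflects no more than how far these arrays spread. Values are array signals on a linear scale on which the trimmed mean of every array is 100. Differences are D1.5 minus D0.5 in log2(signal + 16), a scale that understates the change of dim genes, fitted with limma with the medium as a block. The value after ± is limma's moderated standard error, which draws a gene's own spread between the media toward that of genes of like signal. A call means that limma's p, adjusted by Benjamini-Hochberg over all 8716 tested genes, was under 0.05, and rose and fell are used only of called genes. Pairs of signals are given for Dox+ first and Dox- second. These are bulk cultures, in which fewer cells of a type and less RNA per cell cannot be told apart.

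Naive pluripotency is the state of the preimplantation epiblast, which ES cells keep while LIF signals through STAT3 to factors such as Klf4, Gbx2 and Tfcp2l1. When LIF is withdrawn, fibroblast growth factor signalling through ERK takes over and cells pass through a formative state, like that of the early postimplantation epiblast. Otx2, Pou3f1, Fgf5 and the de novo DNA methyltransferases mark that state, while Pou5f1 (Oct4) and Sox2 are shared by both.

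The arrays differed little in overall measures. Between 41.6% and 44.2% of genes reached a signal of 50 on each of the 9 arrays. Signal at the 3' end of Actb over that at its 5' end, which rises as RNA degrades, moved with the step: this ratio was 1.70 and 1.74 on D0.5 and 1.90 and 1.98 on D1.5, against 1.60 in undifferentiated cells. Its part in the results was not tested. The same ratio of Gapdh was 1.01 and 1.02 on D0.5 and 1.06 and 0.98 on D1.5.

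The 3 marker genes taken for the step, chosen with these data known, passed the test in the directions described for exit from the naive state. Zfp42 (Rex1), a zinc finger gene used as the standard reporter of the naive state, had signals of 1645 and 1712 on D0.5 and of 323 and 136 on D1.5, against 2834 in undifferentiated cells. Both D1.5 arrays lay below both D0.5 arrays, and the fall was 4.90-fold in Dox+ and 11.3-fold in Dox- (-2.90 ± 0.28, adjusted p = 0.00679). Klf4, a Krüppel-like factor downstream of STAT3, was at 2989 in undifferentiated cells, at 723 and 783 on D0.5 and at 110 and 55.3 on D1.5. Its fall (-3.02 ± 0.24, adjusted p = 0.00449) came on top of the lower level already measured on D0.5. Fgf5, the growth factor that marks the postimplantation epiblast, went from 23.7 and 25.8 on D0.5 to 420 and 755 on D1.5, and was at 1.7 in undifferentiated cells. It rose further than any other tested gene in this fit (3.83 ± 0.21, adjusted p = 0.00333), while its other probe set gave 1.51.

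**Figure D1:**
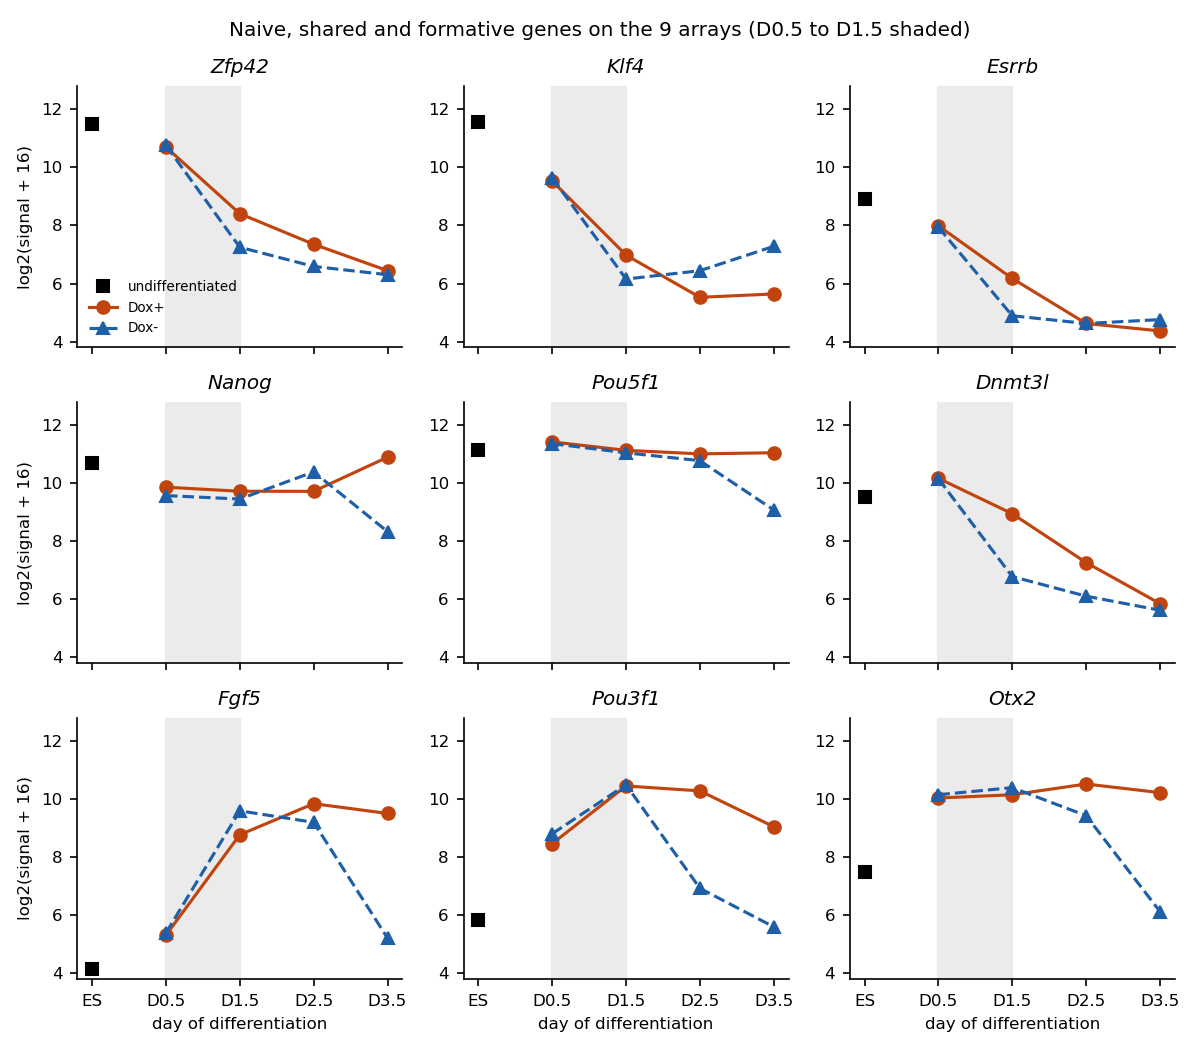
Signals of 9 genes on the 9 arrays, as log2(signal + 16) against the day of differentiation; the square is the undifferentiated array (ES), circles are Dox+ and triangles Dox-, 1 array each, and the step from D0.5 to D1.5 is shaded. Zfp42, Klf4, Esrrb and Dnmt3l are lower on both D1.5 arrays, Fgf5 and Pou3f1 are higher, and Nanog, Pou5f1 and Otx2 were not called within the step.

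The step was broad. Of the 8716 tested genes, 702 rose (8.05%) and 471 fell (5.40%), and 352 and 242 of these had a fitted difference of at least 2-fold. The counts of called members in the lists below are to be read beside these shares of all tested genes. Each called gene differed in the same direction in both media, which the choice by a shared difference favours. Counted without a test, 258 genes (2.96%) were at least 2-fold higher on D1.5 in both media and 169 (1.94%) at least 2-fold lower. The median difference over all tested genes was 0.01. The counts rest on a spread estimated from 1 residual degree of freedom per gene: with the spread taken from all 8 differentiating arrays, 151 genes rose and 115 fell. In that wider fit, leaving out the D1.5 Dox+ array left 6 genes higher and 9 lower, and leaving out any other of the 4 arrays left 0 in either direction, where the day's remaining array is assumed to vary like the others and the missing one is in effect filled in from the difference between media averaged over the other days.

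**Figure D2:**
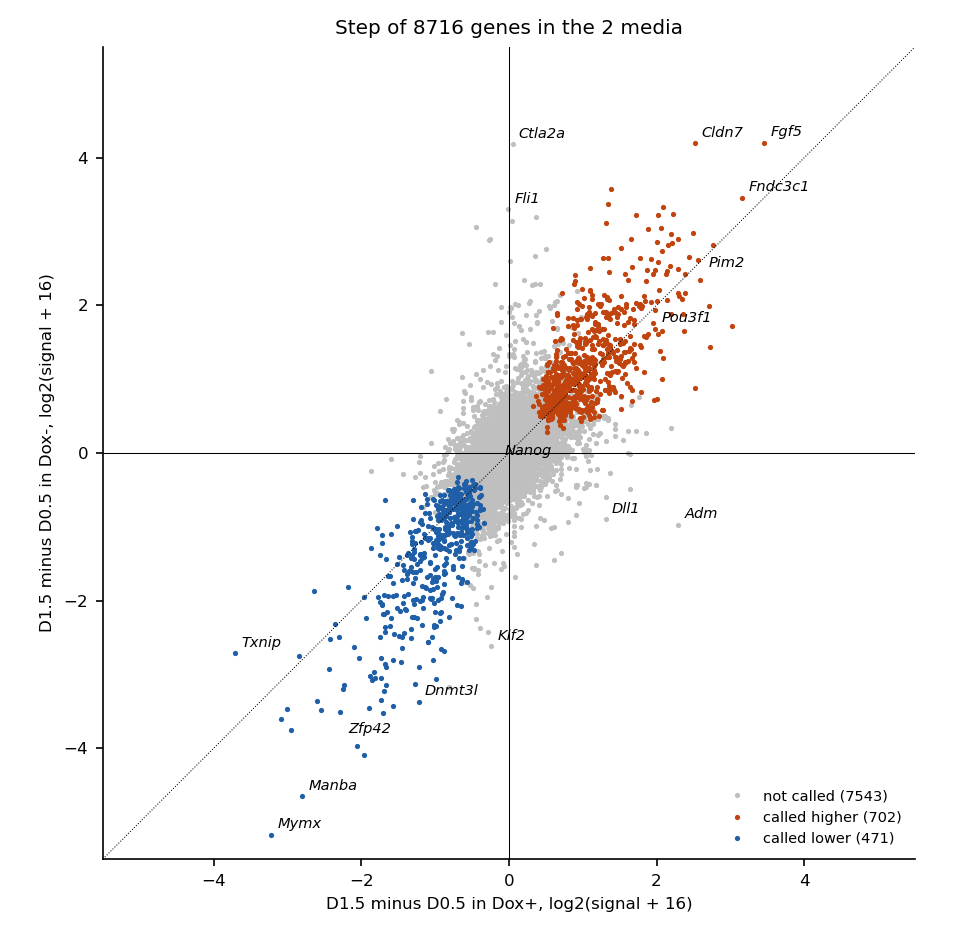
D1.5 minus D0.5 in log2(signal + 16) for each of 8716 tested genes, Dox+ on the horizontal and Dox- on the vertical axis, with 702 genes called higher in orange, 471 called lower in blue, the rest in grey and equality dotted. Most points follow the same direction in both media, and the blue points lie mostly below the dotted line.

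Among the naive pluripotency genes, 15 of the 22 tested members fell and 0 rose, with a median of -1.78 (-1.10 with a pseudocount of 64), and 14 were at least 2-fold lower in both media. The list was chosen with earlier results of these data known. It includes Manba, a lysosomal mannosidase gene and the member that fell furthest (-3.72). Over all 24 members with a probe set, including the 2 dim ones that were not tested (Dppa3 and Pecam1), the median was -1.55. The list's median was -1.31 in Dox+ and -2.42 in Dox-, and all 15 genes that fell did so further in Dox-. This difference between media has no test, since each is 1 pair of arrays.

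Esrrb, an orphan nuclear receptor of the naive network, went from 238 and 230 to 56.3 and 13.7 (-2.43 ± 0.30, adjusted p = 0.0107). Tbx3, a T-box factor that supports self-renewal, went from 280 and 284 to 74.8 and 10.2 (-2.61 ± 0.41, adjusted p = 0.0166). Nr0b1 (Dax1), a nuclear receptor that binds Oct4, went from 491 and 581 to 142 and 48.2 (-2.45 ± 0.35, adjusted p = 0.0136). In all 3 the D1.5 arrays lay below the D0.5 arrays, and the Dox- array was the lowest. Tcl1, a coactivator of Akt kinase, went from 136 and 118 to 12.4 and 7.4 (-2.47 ± 0.20, adjusted p = 0.00449). Gbx2, a homeobox gene downstream of STAT3, went from 200 and 191 to 54.6 and 24.8 (-1.98 ± 0.22, adjusted p = 0.00816). Fbxo15, an F-box gene once used to report reprogramming to pluripotency, went from 721 and 651 to 173 and 23.2 (-3.03 ± 0.46, adjusted p = 0.0162). Prdm14, a repressor of DNA methylation in naive cells, went from 94.2 and 77.5 to 28.1 and 0.5, where the last value is near the bottom of the scale (-1.91 ± 0.32, adjusted p = 0.0206).

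The other 7 tested naive genes were not called. Nanog, a homeobox factor whose level varies between ES cells, was at 914 and 745 on D0.5 and at 828 and 685 on D1.5, a difference of -0.13 ± 0.12 (adjusted p = 0.496), below the 1630 of undifferentiated cells on all 4 arrays. Klf2, a relative of Klf4, was at 205 and 185 on D0.5, at 171 on D1.5 in Dox+ and at 16.9 on D1.5 in Dox-, so that the step was far larger in Dox- (adjusted p = 0.130). Tfe3, the basic helix-loop-helix factor whose exclusion from the nucleus accompanies exit from the naive state, had 167 and 190 on D0.5 and 200 and 202 on D1.5 (0.16 ± 0.14, adjusted p = 0.483). Its position in the cell was not measured.

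The general pluripotency genes moved less: 8 of 19 fell and 0 rose, with a median of -0.30, and 1 was at least 2-fold lower in both media. Pou5f1 had 2724 and 2614 on D0.5 and 2223 and 2095 on D1.5 (-0.30 ± 0.08, adjusted p = 0.0710) and was not called. Sox2, its partner, went from 2422 and 2822 to 1906 and 1461 (-0.64 ± 0.15, adjusted p = 0.0484), a call that lies next to the threshold; in the 8-array fit without the D0.5 Dox- array its difference was 0.21. The pair Dppa2 and Dppa4, chromatin factors that act together, fell from 2332 and 2524 to 1120 and 638 (-1.50 ± 0.21, adjusted p = 0.0139) and from 1702 and 1598 to 983 and 673 (1.72-fold in Dox+ and 2.34-fold in Dox-, adjusted p = 0.0134). Utf1, an Oct4 target, fell by 0.90 and Gdf3, a ligand of the Nodal pathway, by 0.73 on the log2 scale. Cdh1 (E-cadherin) was at 1542 and 1698 on D0.5 and at 2171 and 2004 on D1.5 and was not called (0.36 ± 0.11, adjusted p = 0.0796).

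Promoter windows from RefSeq (GRCm38.p6), 300 bases around each gene's start, are shown for 3 genes that lie at both ends of the step, because they hold a match to a factor's binding motif named in this setting. The capitals mark the match. In Zfp42, which fell, and Pim2, which rose, it is the octamer ATGCAAAT bound by POU factors such as Oct4, read as its reverse complement or as written. In Esrrb it is the STAT3 motif TTCNNNGAA. Binding at these matches was not measured. The windows are chr8:43306960-43307259 (- strand), chrX:7878056-7878355 (+ strand) and chr12:86360867-86361166 (+ strand), printed 5′ to 3′ along the gene's strand.
Zfp42: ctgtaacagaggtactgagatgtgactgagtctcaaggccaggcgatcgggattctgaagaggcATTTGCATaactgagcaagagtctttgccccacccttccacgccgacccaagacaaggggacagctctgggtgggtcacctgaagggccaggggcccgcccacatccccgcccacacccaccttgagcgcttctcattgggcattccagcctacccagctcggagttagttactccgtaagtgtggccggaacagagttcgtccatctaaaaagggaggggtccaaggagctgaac
Pim2: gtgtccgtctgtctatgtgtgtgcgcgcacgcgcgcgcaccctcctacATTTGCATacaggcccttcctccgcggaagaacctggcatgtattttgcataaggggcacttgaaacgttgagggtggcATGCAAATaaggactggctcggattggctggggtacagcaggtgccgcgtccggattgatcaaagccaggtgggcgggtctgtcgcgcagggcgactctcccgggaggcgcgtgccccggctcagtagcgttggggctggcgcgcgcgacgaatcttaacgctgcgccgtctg
Esrrb: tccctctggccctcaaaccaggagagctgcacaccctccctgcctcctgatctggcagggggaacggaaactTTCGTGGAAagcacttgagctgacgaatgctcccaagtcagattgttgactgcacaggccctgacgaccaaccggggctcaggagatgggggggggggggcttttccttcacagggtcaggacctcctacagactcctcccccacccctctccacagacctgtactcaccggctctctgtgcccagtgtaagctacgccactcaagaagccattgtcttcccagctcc
The Zfp42 match covers bases 65 to 72 of its window, the Pim2 matches cover bases 49 to 56 and 128 to 135, and the Esrrb match covers bases 73 to 81. On either strand, the octamer was in 1.74% of all 32851 windows, in 1.18% of those of tested genes, in 1.33% of those of genes that rose and in 2.23% of those of genes that fell. The STAT3 motif was in 8.30% of all windows, 6.18% of those of tested genes, 5.73% of those of genes that rose and 4.67% of those of genes that fell. The windows of Klf4 and Fgf5 held neither of these, nor TCAAGGTCA (Esrrb), TAATCC (Otx2), AACCNGGTT (Grhl2) or TGACGTCA (the cyclic AMP response element). No motif of the 6 contains another.

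The formative and primed epiblast genes did not move as 1 group: 13 of the 34 tested members rose, 5 fell and 16 were not called, with a median of 0.28, and over all 37 with a probe set the median was 0.35. Pou3f1 (Oct6), a POU factor of the early epiblast, went from 336 and 430 to 1379 and 1419 (1.83 ± 0.13, adjusted p = 0.00446), against 41.7 in undifferentiated cells. Pim2, a serine/threonine kinase gene, went from 202 and 262 to 1276 and 1680 (2.59 ± 0.12, adjusted p = 0.00333). Car14, a carbonic anhydrase gene, went from 93.7 and 94.3 to 384 and 596 (2.17 ± 0.19, adjusted p = 0.00543). In these 3 genes both D1.5 arrays lay above both D0.5 arrays, and Car14 was higher in Dox- on D1.5. Dnmt3b, a de novo DNA methyltransferase, went from 3024 and 3123 to 5051 and 4474 (0.63 ± 0.09, adjusted p = 0.0125). Sox3, a relative of Sox2, rose from 69.8 and 72.8 to 114 and 165 (0.81 ± 0.18, adjusted p = 0.0383), and Mycn, a Myc family gene, from 696 and 710 to 983 and 1252 (0.65 ± 0.13, adjusted p = 0.0319).

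Other formative genes were already high on D0.5 and were not called within the step. Otx2, a homeobox factor of the formative state, was at 162 in undifferentiated cells, at 1031 and 1116 on D0.5 and at 1116 and 1326 on D1.5 (0.18 ± 0.11, adjusted p = 0.319). Lef1, a transcription factor of the Wnt pathway, was at 82.6 in undifferentiated cells, at 602 and 784 on D0.5 and at 759 and 561 on D1.5 (adjusted p = 0.834). Dnmt3a, the other de novo methyltransferase, went from 398 to 1610 and 1726 on D0.5 and had 1297 and 919 on D1.5 (-0.60 ± 0.16, adjusted p = 0.0615). Grhl2, an epithelial transcription factor, was at 48.2 in undifferentiated cells, at 242 and 281 on D0.5 and at 180 and 202 on D1.5 (adjusted p = 0.104). In these 4 genes the distance from undifferentiated cells was already there on D0.5. Tcf15, a helix-loop-helix gene of cells about to leave the naive state, fell from 1513 and 1205 to 467 and 123 (-2.40 ± 0.33, adjusted p = 0.0131), from a D0.5 level above the 953 of undifferentiated cells.

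Of the LIF pathway, 8 of 17 tested members fell and 1 rose. The median was -0.24, but it was -0.41 in Dox+ alone and -0.43 in Dox- alone, -0.13 with no filter on low signals and -0.75 with the filter on the 4 arrays. Lifr, the LIF receptor, went from 806 and 920 to 240 and 113 (-2.27 ± 0.28, adjusted p = 0.0104), and Il6st (gp130), its signalling partner, from 189 and 138 to 80.3 and 53.2 (-1.12 ± 0.15, adjusted p = 0.0121). By these probe sets both parts of the receptor were lower on D1.5, while the 2 other probe sets of Lifr gave -0.67 and -0.05. Socs3, the feedback inhibitor that STAT3 induces, was at 1824 in undifferentiated cells, at 158 and 149 on D0.5 and at 38.5 and 90.0 on D1.5 (-1.16 ± 0.26, adjusted p = 0.0447). Stat3 itself had 50.6 and 52.4 on D0.5 and 34.1 and 59.5 on D1.5 and was not called (adjusted p = 0.721). Jak1, the receptor's kinase, was also not called (0.27 ± 0.16, adjusted p = 0.300). The 1 member that rose was Ocln, a tight junction gene listed as a target (1.33 ± 0.24, adjusted p = 0.0237).

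Of the fibroblast growth factor and ERK list, 7 of 20 tested members fell and 3 rose. The median of -0.08 changed sign with no filter on low signals (0.01) and was -0.28 with the filter on the 4 arrays. Among ligands, Fgf5 rose and Fgf4, the factor that ES cells make themselves, fell from 836 and 757 to 483 and 182 (-1.37 ± 0.28, adjusted p = 0.0328). The ligand Fgf15 also rose (0.64). The called feedback and target genes fell, apart from Spry1. Among them were Spred2 (-0.67), Etv5 (-0.47) and Ier2 (-0.96). Etv4, an ETS factor induced by ERK, fell from 133 and 144 to 24.7 and 49.7 (-1.58 ± 0.20, adjusted p = 0.0116). Spry4 fell from 317 and 488 to 150 and 97.6 (-1.58 ± 0.28, adjusted p = 0.0220), while Spry1, another inhibitor of the same family, rose from 56.6 and 54.0 to 121 and 139 (1.03 ± 0.17, adjusted p = 0.0176). Egr1, an immediate early gene, fell from 485 and 513 to 171 and 160 (-1.51 ± 0.14, adjusted p = 0.00600). Dusp6, an ERK phosphatase, was at 1295 and 1352 on D0.5 and at 1326 and 1336 on D1.5 (0.01 ± 0.10, adjusted p = 0.967). The list as a whole had no common direction, while its called feedback and target genes other than Spry1 were lower on D1.5.

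The other signalling lists were called about as often as all tested genes, of which 8.05% rose and 5.40% fell. Of 18 tested Nodal and activin genes 1 rose and 2 fell: the inhibitor Lefty1 went from 391 and 294 to 1007 and 639 (1.21 ± 0.14, adjusted p = 0.00848), and the activin subunit Inhbb from 210 and 187 to 12.1 and 2.4 (-3.24 ± 0.21, adjusted p = 0.00333). Of 21 tested canonical Wnt genes 2 rose and 1 fell, with the receptor Fzd7 at 976 and 1069 on D0.5 and 1757 and 1517 on D1.5 (0.67 ± 0.12, adjusted p = 0.0260) and the receptor Fzd5 at 356 and 358, then 186 and 149 (-1.03 ± 0.15, adjusted p = 0.0143). The third call was Sfrp2, a secreted Wnt modulator, which rose (0.86 ± 0.13, adjusted p = 0.0163). Of 17 tested bone morphogenetic protein (BMP) genes, the ligand Bmp4 fell from 60.5 and 51.1 to 19.7 and 13.6 (-1.14 ± 0.22, adjusted p = 0.0286; 0.10 and 0.16 in the 8-array fit without the D0.5 Dox+ or the D1.5 Dox- array) and the target Id2 rose from 231 and 313 to 865 and 686 (1.46 ± 0.20, adjusted p = 0.0128). Id1, another target, was high on 1 array only, with 133 and 112 on D0.5 and 136 and 485 on D1.5 (adjusted p = 0.181).

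**Figure D3:**
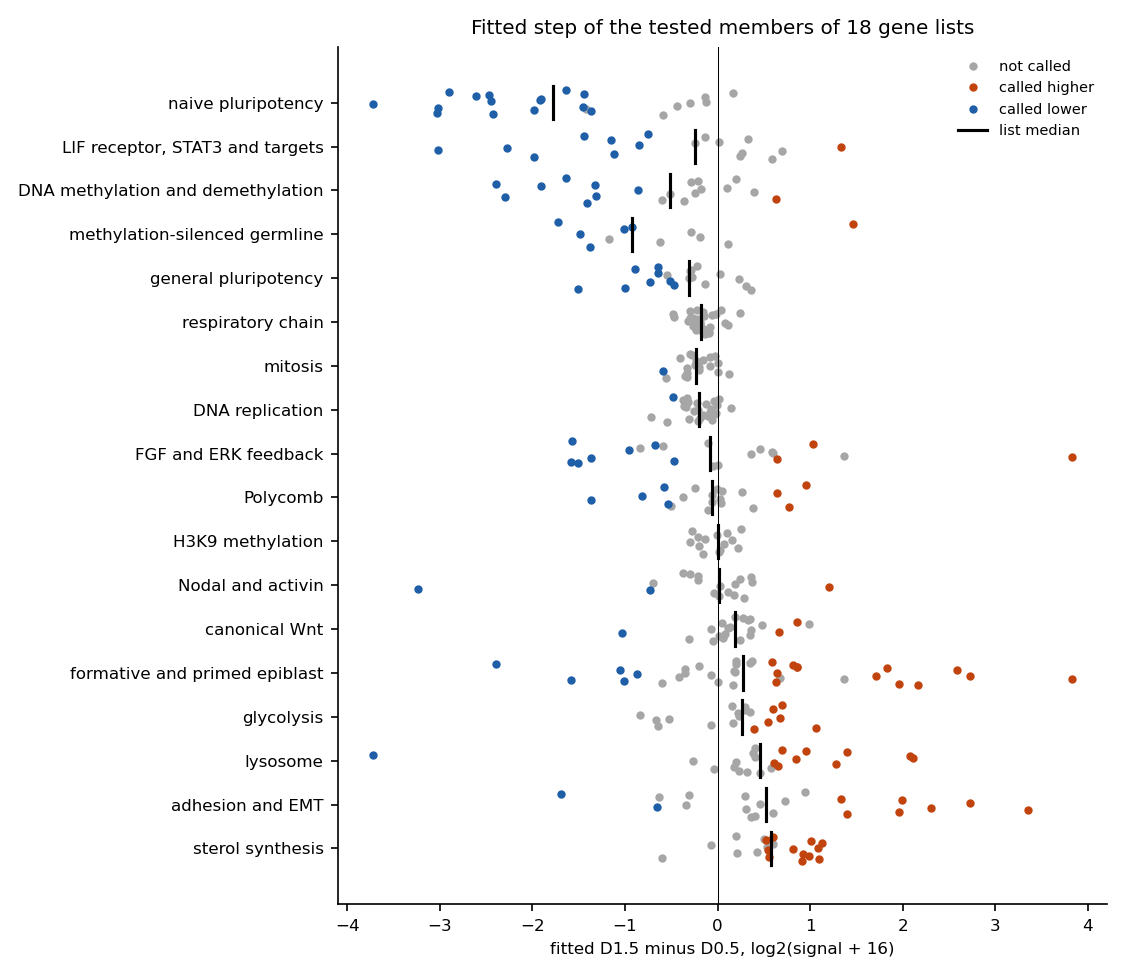
Fitted difference of D1.5 minus D0.5, in log2(signal + 16), of the tested members of 18 gene lists; each point is a gene, orange called higher, blue called lower and grey not called, and the bar is the list's median. Naive pluripotency genes reach from 0.16 down to -3.72, sterol synthesis and lysosome genes lie mostly to the right of 0, and respiratory chain, mitosis and replication genes lie close to 0.

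Of the DNA methylation and demethylation genes, 8 of 19 tested members fell and Dnmt3b alone rose, with a median of -0.51 (-0.90 in Dox- alone). Dnmt3l, the cofactor of the de novo enzymes without activity of its own, went from 1134 and 1122 to 478 and 94.3 (-2.29 ± 0.47, adjusted p = 0.0323), so Dnmt3l and Dnmt3b moved in opposite directions. Tet2 and Tet1, dioxygenases that oxidise methylcytosine, fell: Tet2 went from 470 and 487 to 130 and 44.8 (-2.39 ± 0.31, adjusted p = 0.0113), and Tet1 from 1472 and 1563 to 790 and 446 (-1.33 ± 0.22, adjusted p = 0.0182). Dnmt1, the maintenance enzyme, was not called (-0.36 ± 0.11, adjusted p = 0.0986). Of 11 tested germline genes known to be silenced by promoter methylation, 5 fell and 1 rose, but 11 of the 22 with a probe set were too dim to be tested. Tex19.1 fell from 229 and 192 to 69.0 and 38.8 (-1.72 ± 0.17, adjusted p = 0.00712), whereas Sycp3, a component of meiotic chromosomes, rose from 325 and 337 to 988 and 894 (1.46 ± 0.13, adjusted p = 0.00555). DNA methylation itself was not measured.

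Of the 14 tested H3K9 methylation genes 0 were called by limma, and 0 had an unadjusted p under 0.05. Of 19 tested Polycomb genes 4 fell and 3 rose, in no common direction, where 5.40% of all tested genes fell and 8.05% rose. Jarid2, an accessory subunit of Polycomb repressive complex 2, fell from 1978 and 2306 to 958 and 696 (-1.37 ± 0.17, adjusted p = 0.0110), and Mtf2, another accessory subunit, from 2313 and 2228 to 1610 and 1015 (-0.82 ± 0.16, adjusted p = 0.0277). The catalytic subunit Ezh2 was not called (-0.06 ± 0.14, adjusted p = 0.813).

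Cldn7 and Krt18, both epithelial genes, were among the 15 genes with the largest rises. Of 20 tested adhesion and epithelial-mesenchymal genes, 7 rose and 2 fell, with a median of 0.53 (0.90 with a pseudocount of 1). Cldn7, a claudin of tight junctions, went from 21.2 and 17.6 to 197 and 599 (3.36 ± 0.38, adjusted p = 0.00861). Krt18, a simple epithelial keratin, went from 43.5 and 46.5 to 261 and 575 (2.73 ± 0.26, adjusted p = 0.00615), and its partner Krt8 from 24.3 and 27.2 to 86.5 and 254 (2.00 ± 0.32, adjusted p = 0.0176). Esrp1, a splicing regulator of epithelial transcripts, went from 85.5 and 92.3 to 397 and 635 (2.31 ± 0.18, adjusted p = 0.00449). In each of these 4 genes both D1.5 arrays were higher, and all 7 genes that rose were further up in Dox-. The 2 that fell were Zeb1, a repressor of epithelial genes, from 193 and 198 to 87.9 and 25.6 (-1.69 ± 0.32, adjusted p = 0.0272), and Fn1 (fibronectin). Cdh2 (N-cadherin) rose from 73.2 and 90.3 to 214 and 270 (1.40 ± 0.14, adjusted p = 0.00712), so the rise was not of epithelial genes alone.

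Of 21 tested lysosome genes 9 rose and 1 fell, with a median of 0.46. Hexa, the alpha subunit of hexosaminidase, went from 235 and 176 to 1268 and 690 (2.12 ± 0.16, adjusted p = 0.00449). Lamp2, a lysosomal membrane protein gene, went from 86.9 and 165 to 661 and 473 (2.08 ± 0.30, adjusted p = 0.0141). Ctsl (cathepsin L) went from 1523 and 1190 to 3392 and 3181 (1.28 ± 0.10, adjusted p = 0.00449). Of the 4 tested subunits of the proton pump, named Atp6v0 and Atp6v1, none was called. Manba, a lysosomal mannosidase gene that also stands in the naive list, was the 1 that fell, from 1240 and 1273 to 164 and 35.6 (-3.72 ± 0.41, adjusted p = 0.00801).

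Folliculin, its partner Fnip1 and the Rag GTPases control where Tfe3 lies in the cell and signal nutrient state at the lysosome. Of 11 tested genes of this group 4 rose and 2 fell. Rragd, a Rag GTPase, went from 277 and 304 to 1420 and 1429 (2.23 ± 0.12, adjusted p = 0.00333), above the 130 of undifferentiated cells on all 4 arrays. Fnip1 went from 238 and 149 to 789 and 389 (1.48 ± 0.15, adjusted p = 0.00712), and Flcn (folliculin) from 188 and 213 to 478 and 329 (0.93 ± 0.20, adjusted p = 0.0365). Rragc rose too (0.92 ± 0.20, adjusted p = 0.0366). Apart from Rragd, whose D1.5 arrays were alike, the Dox+ array of D1.5 was the higher of the pair. Mitf, a factor related to Tfe3, fell from 63.1 and 65.1 to 19.6 and 14.5 (-1.28 ± 0.22, adjusted p = 0.0208).

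Of 20 tested sterol synthesis genes 12 rose and 0 fell, with a median of 0.58. The rises were smaller than those of the marker genes, and 2 members were at least 2-fold higher in both media. Hmgcs1, which makes the precursor of mevalonate, went from 1623 and 1704 to 3007 and 3350 (0.93 ± 0.09, adjusted p = 0.00628). Msmo1, a sterol oxidase gene, went from 405 and 360 to 895 and 763 (1.08 ± 0.12, adjusted p = 0.00889). Dhcr7, the last enzyme of cholesterol synthesis, went from 99.1 and 79.7 to 233 and 185 (1.09 ± 0.14, adjusted p = 0.0119). The list's median was 0.60 in Dox+ and 0.58 in Dox-, close to each other. In both media the D0.5 sums of the list's signals (7048 and 6865) were below that of undifferentiated cells (8278), and the D1.5 sums (11665 and 11704) above it.

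**Figure D4:**
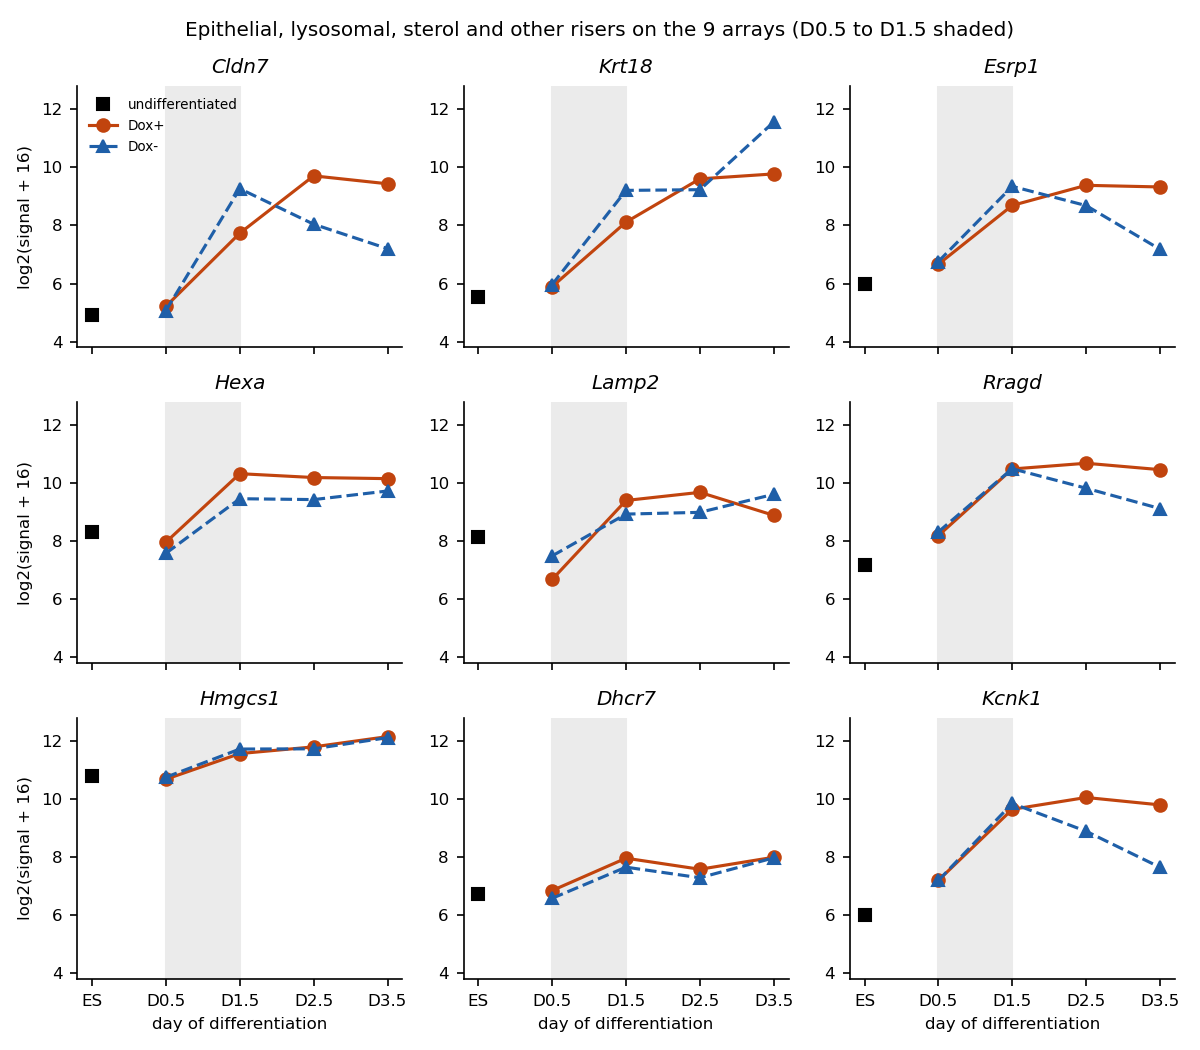
Signals of 9 genes that rose in the step, as log2(signal + 16) against the day of differentiation, with the undifferentiated array (ES) as a square, Dox+ as circles and Dox- as triangles, 1 array each, and the step shaded. Cldn7, Krt18 and Esrp1 are higher on D1.5 in Dox-, Hexa and Lamp2 are higher in Dox+, and Rragd and Kcnk1 have about the same level in both.

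Of 18 tested glycolysis genes 6 rose and 0 fell, with a median of 0.26 (0.10 in Dox- alone); Tpi1 (triosephosphate isomerase) went from 1975 and 1875 to 3229 and 3022 (0.69 ± 0.08, adjusted p = 0.0101). Of the 32 tested respiratory chain genes 0 were called by limma, although 28 had a negative difference, 9 of them with an unadjusted p under 0.05, and their median was -0.18. Of 26 DNA replication genes 1 fell and of 21 mitosis genes 1 fell, namely Rfc5 (-0.48) and Ccnb2 (-0.59), and neither list had a call higher. Both counts are close to the 5.40% of all tested genes that fell. Of 13 tested imprinted genes 5 rose and 1 fell, among them Impact, a translation regulator, from 903 and 835 to 2048 and 1781 (1.12 ± 0.10, adjusted p = 0.00600) and, downward, the cyclin-dependent kinase inhibitor Cdkn1c, from 405 and 428 to 185 and 143 (-1.28 ± 0.16, adjusted p = 0.0110). In the Myc and Lin28 group Mycl rose (1.72 ± 0.22, adjusted p = 0.0110) and Myc fell from 342 and 372 to 212 and 167 (-0.87 ± 0.16, adjusted p = 0.0271), the reverse of Mycn.

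Of 11 tested genes of PKA subunits, inhibitors and anchors 1 rose and 1 fell, near the shares of all tested genes (8.05% rose and 5.40% fell). Prkaca, the PKA catalytic subunit, had 467 and 555 on D0.5 and 545 and 509 on D1.5 (0.05 ± 0.14, adjusted p = 0.852), though the platform's probes need not see a transgene. Of the regulatory subunits Prkar2b rose from 44.4 and 40.2 to 118 and 120 (1.21 ± 0.17, adjusted p = 0.0131) and Prkar2a fell from 478 and 456 to 300 and 305 (-0.60 ± 0.13, adjusted p = 0.0414). The 2 other probe sets of Prkar2b gave 0.74 and 1.17, and the 3 others of Prkar2a lay from -0.30 to 0.16. Of 11 tested cyclic AMP-responsive genes 2 rose and 1 fell; Kcnk1, a potassium channel gene, rose from 131 and 130 to 783 and 904 (2.55 ± 0.14, adjusted p = 0.00333).

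The genes furthest up that belong to none of the lists were Fndc3c1, Cthrc1, App, Cd24a, Ldb2, Lratd2, Tlcd3b, Zfp608, Hs6st2 and Chst1, with differences from 3.31 to 2.48. Fndc3c1, a fibronectin type III domain gene, went from 29.9 and 47.9 to 394 and 687. Cd24a, a surface glycoprotein gene, went from 247 and 243 to 1096 and 2603, and App, the amyloid precursor protein gene, from 49.3 and 45.5 to 351 and 470. Chst1 and Hs6st2 both encode sulfotransferases of carbohydrate chains. Furthest down was Mymx, which encodes a microprotein of muscle cell fusion: it went from 1410 and 1152 to 137 and 16.5 (-4.19 ± 0.43, adjusted p = 0.00712), against 1374 in undifferentiated cells. Txnip, a thioredoxin-binding protein gene of the stress list, went from 898 and 1054 to 53.7 and 148 (-3.21 ± 0.25, adjusted p = 0.00449). Txnip was lower in Dox+ on D1.5, unlike most genes that fell. The other genes furthest down, in none of the lists, were Samd9l, Mylpf, Morc1, Jam2, Myo1f, Pcolce, Stra8 and Cobl, from -3.36 to -2.68. Stra8 is a gene of meiotic entry and Morc1 one of germline silencing, and Mylpf is a muscle myosin light chain.

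The D2.5, D3.5 and undifferentiated arrays took no part in the fit. Against undifferentiated cells, 529 genes (6.07%) were at least 2-fold higher on D2.5 in both media and 377 (4.33%) lower, and on D3.5 the counts were 645 (7.40%) and 432 (4.96%). Of the 702 genes that rose, 349 were among those higher on D2.5 (49.7% of the risers and 66.0% of the 529) and 331 among those higher on D3.5 (47.2% and 51.3%). Of the 471 genes that fell, 259 were among those lower on D2.5 (55.0%, and 68.7% of the 377) and 257 among those lower on D3.5 (54.6% and 59.5%). None of the risers was at least 2-fold lower than undifferentiated cells in both media on either day, and none of those that fell was at least 2-fold higher. Of the 15 naive genes that fell, 15 were lower by this count on D2.5 and 14 on D3.5. Of the 13 formative genes that rose, 8 were higher on D2.5 and 4 on D3.5. Fgf5, for instance, was at 899 and 570 on D2.5 and at 708 and 21.0 on D3.5, with the D3.5 Dox- array back at the level of D0.5. All 12 sterol genes that rose were under 2-fold on D2.5 in at least 1 medium, and 6 were higher on D3.5.

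The step was not equal in the media, though with 1 array per combination this has no test. At least 2-fold differences numbered 377 up and 206 down in Dox+, and 533 up and 355 down in Dox-. Of the called genes, 451 of 702 rose further and 349 of 471 fell further in Dox-. The steps of all tested genes had a Pearson correlation of 0.75 across genes, which share arrays and scaling and are not independent replicates. The steps differed by at least 2-fold between media for 315 genes, 156 with the higher step in Dox- and 159 with the lower.

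The differences furthest toward Dox- were those of Ctla2a, Aplnr, Fli1, Ctla2b and Sox18, of which Aplnr, Fli1 and Sox18 are genes of blood vessel precursors. Fli1, an ETS factor, had signals of 0.2 and 0.6 on D0.5 and of 0.1 and 148 on D1.5. Of 15 tested genes of vascular and blood precursors 0 were called by limma and 5 had an unadjusted p under 0.05, all higher; the list's median was 0.01 in Dox+ and 1.92 in Dox-. The signal filter used all 9 arrays, so some members, Fli1 among them, were tested only for their level in Dox-: the fitted median was 1.12 over the tested members, 0.56 over all 24 with a probe set and 0.42 with the filter on the 4 arrays. The summed signal of that list was 443 and 438 on D0.5 and 436 and 2266 on D1.5. The differences furthest the other way were those of Adm, Klf2, Bnc2, Dll1 and Dnmt3l. Of 17 tested hypoxia-inducible genes 1 rose, Ddit4, near the 8.05% of all tested genes that did. The list median was 1.00 in Dox+ and 0.03 in Dox-.

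Markers of other cell types were read beside these results. Summed signals of the fibroblast and feeder list went from 243 and 229 to 447 and 413, of the neural list from 1124 and 1145 to 1750 and 2011, of the primitive streak list from 1570 and 1616 to 2247 and 2234, and of the extraembryonic endoderm list from 1226 and 1213 to 1410 and 2161. Pou3f1, in both the streak and the formative list, went from 336 and 430 to 1379 and 1419, a larger rise than that of the streak sum. Taken without it, the streak sum was lower on D1.5 in both media. That sum still holds Fgf4, also in the naive list, which went from 836 and 757 to 483 and 182. The median step of the tested streak genes was -0.04 in Dox+ and 0.54 in Dox-, and the fitted difference was positive in 11 and negative in 3. Of 14 tested streak genes Pou3f1 alone rose and Fgf4 alone fell. The summed signal of the lateral plate and heart list went down, from 486 and 474 to 228 and 261. Its 2 members that fell, Tbx3 and Bmp4, are also expressed in ES cells, and Tbx3 alone went from 280 and 284 to 74.8 and 10.2. The median step of the 8 tested members was -0.15 in Dox+ and 0.12 in Dox-, and the fitted difference was positive in 5 and negative in 3. Of 6 tested trophoblast genes 2 rose, Krt8 and Krt18, which are not limited to that tissue, while Cdx2, a defining factor, had 13.9 and 5.1 on D0.5 and 11.2 and 13.1 on D1.5. Of 7 tested fibroblast genes Dcn and Col5a2 rose, Dcn from 6.4 and 9.9 to 78.1 and 35.8, while 12 of the 19 with a probe set, Col1a1 and Col3a1 among them, were too dim to be tested. Of 7 tested neural genes Msi1, Sox3 and Sox11 rose, and Sox1, a defining gene of neural ectoderm, had 158 and 140 on D0.5 and 114 and 64.9 on D1.5. Sox11 alone went from 477 and 502.5 to 920 and 1119, a large part of the rise of the neural sum. Of 13 tested extraembryonic endoderm genes Dab2 and Lamb1 rose, and Gata6 had 15.3 and 24.0 on D0.5 and 9.8 and 35.5 on D1.5. Sox17, also in the vascular list, had 6.1 and 2.3 on D0.5 and 12.3 and 100 on D1.5. Sox7 had 6.7 and 7.2, then 6.0 and 54.5, and neither was called. The fitted difference was positive in 12 of the 13 and negative in 1. The part of such cells in the step was not tested.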

How the data were processed

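Total RNA of 9 mouse ES cell cultures was labelled with biotin and measured on 1 Affymetrix array each. The values the authors deposited are linear intensity values, 1 for each probe set and array, made with GCOS per the submitters' processing notes and scaled to an average of 100 per the labels; the deposited intensity values bear this out, with a mean of 100 on every array after leaving out the highest and lowest 2% of values. Its version and background correction were not stated in the labels. Of 45101 probe sets, 34945 had 1 gene symbol, 932 several and 9224 none; 34741 were matched by gene ID to the RefSeq gene table (GRCm38.p6). For each of 18193 genes the single-symbol probe set brightest over the 9 arrays was kept (9010 genes had several), and the 8716 genes that reached a signal of 50 on 2 or more arrays were tested.

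Values are log2(signal + 16). limma 3.58.1 in R 4.3.3 (lmFit, then eBayes with a trend) was fitted to the 4 arrays with day and medium as terms, which leaves 1 residual degree of freedom (median prior degrees of freedom 4.74), and p-values were adjusted over all tested genes. The fit was tested on simulated data with independent noise of the fitted size and the same added step in both media. That asks whether a known step is recovered, and cannot show whether the noise of these arrays is of that kind. Groups come from the labels. Each group has 1 array, whose number limits the precision. Alternatives were the pseudocount, the filter, quantile normalization, the mean of a gene's probe sets, the spread from 8 arrays, no medium block, no trend, each medium alone, and, added after seeing the data, leaving out each array.

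Members and lists were chosen with earlier results of these data known. Named genes are the 15 called genes with the largest rise and the 15 with the largest fall, up to 4 members with the largest difference of each list, a set always given (such as Nanog, Pou5f1, Otx2 and Prkaca) and the 5 furthest each way in the difference between media; other list members were named after their values were seen. Among the genes named by rule, the only ones checked for this, none had another probe set that opposed it by 0.5 or more on the log2 scale. Smaller differences of sign occurred for 8 called genes (App, Hs6st2, Utf1, Tbx3, Neu1, Ccnd3, Mycl and Prkar2a) and for 10 that were not called, Pfkfb3 the furthest. In some called genes other probe sets moved far less than the one used. They gave -0.67 to -0.05 for Lifr, -0.54 for Inhbb, 0.47 to 0.60 for Rragd and -0.15 to -0.01 for Tfcp2l1. Among others were Fgf5 (1.51 against 3.83), Esrrb (-0.98 to -0.30 against -2.43) and Tlcd3b (0.04 to 1.18 against 2.58). For Cobl the value was -0.004 and for Dcn 0.006. In others they moved alike, such as Klf4 (-2.57) and Tet2 (-2.41). Among two-cell-stage genes 0 passed the filter. Lists not described elsewhere were G1 cyclins and inhibitors (2 of 17 fell), p53 and stress genes (4 of 19 fell, Txnip and Gadd45a among them) and interferon and MHC genes (4 of 9 rose and 3 fell).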

Additional observations from a re-analysis of the deposited data

Results flagged for a closer look

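For 3 of the genes named by rule the step from D0.5 to D1.5 went in opposite directions in the media, by at least 0.5 on the log2(signal + 16) scale in each; with 1 pair of arrays per medium the difference was not tested. Over all tested genes 28 met this, and the 1 that did so by 2-fold in each medium was Id3, a BMP target named after its values were seen. Kdr, the receptor of vascular endothelial growth factor, had signals of 22.5 on D0.5 and 8.7 on D1.5 in Dox+, and 17.4 and 87.4 in Dox-, so its step was 2.27 higher in Dox-. Adm (adrenomedullin) went from 47.0 to 293 in Dox+ and from 65.4 to 25.6 in Dox-, a difference of -3.26. Dll1, a Notch ligand, went from 72.1 to 202 in Dox+ and from 85.4 to 38.7 in Dox-, a difference of -2.20.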

How the results depend on the processing

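Against 702 genes called higher and 471 lower, 323 and 238 were called with no filter on low signals and 151 and 115 with the spread from all 8 differentiating arrays; leaving out 1 array in that wider fit gave 0 to 6 and 0 to 9. All 151 and 115 were among the main calls. With quantile normalization 604 and 445 of the calls were shared, and with no medium block 666 and 442. With the mean of a gene's probe sets, where 7038 genes were tested, 448 and 349 were shared. Of 258 genes at least 2-fold higher in both media, the count was 408 with a pseudocount of 1, 85 with 64 and 146 with the mean of a gene's probe sets; of 169 lower it was 76 with a pseudocount of 64. The median of the general pluripotency list was -0.42 in Dox- alone and that of the DNA methylation list -0.90 in Dox- alone. The formative list had 0.37 in Dox+ alone, 0.22 with a pseudocount of 64 and 0.35 with no filter. The sterol list had 0.60 in Dox+ alone, 0.63 and 0.50 with pseudocounts of 1 and 64, 0.60 with the filter on the 4 arrays and 0.56 with the mean of probe sets. The lysosome list had 0.59 in Dox+ alone. Signs turned for the fibroblast growth factor list's median with no filter (0.0077 against -0.08). Without 1 array, Bmp4 ranged from -2.44 to 0.16 and Sox2 from -1.49 to 0.21, with no call in those fits; the cause was not tested. Of the 108 named genes called, 69 calls were lost with the spread from 8 arrays, 29 with no filter, 21 with no trend, 97 to 107 without 1 array and up to 7 under the other settings that gave a test. With the mean of a gene's probe sets only 94 of these named genes were still tested, and 7 of them lost their call. Dim genes are limited by signal over background. The fit pairs the arrays by medium, and the labels give no replicate number to pair by; with no medium block 801 and 544 genes were called.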
